A study of Saccharomyces cerevisiae with 79 samples.

Results

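Splicing of newly made RNA was followed for 5 genes of RNA polymerase II transcription and chromatin in the budding yeast Saccharomyces cerevisiae: RPO26 (YPR187W), SRB2 (YHR041C), TAF14 (YPL129W), ARP9 (YMR033W) and VPS75 (YNL246W). They were taken by gene identifier from tables of 308 targeted introns in 297 genes, and each contributes 1 intron. Actively growing cells in synthetic medium were given 4-thiouracil, which enters RNA during synthesis in place of uracil, and were collected on filters and frozen after set labelling times. Labelled RNA was biotinylated, captured on streptavidin beads and sequenced by MPE-seq, short for multiplexed primer extension sequencing. Primers set downstream of chosen introns yield reads that either still hold the intron (unspliced) or have lost it (spliced). Schizosaccharomyces pombe RNA was added to each sample as a spike-in.

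The WT group is strain BY4741, sampled in 3 time courses of 10 libraries at nominal labelling times of 0, 90, 120, 150, 210, 300, 390, 540, 720 and 990 s. The prp2-1 group carries a temperature-sensitive allele of PRP2, which encodes the ATPase that remodels the spliceosome just before the first chemical step. Its 11 libraries used here are 1 full course, from 0 to 1320 s, and the 0 s library of another. The WT_30 group is also BY4741, in 2 courses of 10 libraries at 0, 90, 120, 150, 180, 240, 300, 360, 480 and 3600 s. It received labelled total S. pombe RNA as spike-in, whereas the other groups received spike-in RNAs transcribed in vitro. The labels give no growth temperature for any group, so whether prp2-1 cells were held at a temperature that inactivates Prp2 is not given in the sources used here. Whether each course was a culture of its own is not stated in the labels, so the spread behind the p-values is that of these courses and may be technical.

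An intron is removed in 2 chemical steps. In the first, the branch-point adenosine attacks the 5′ splice site and leaves a lariat intermediate, and in the second the exons are joined and the intron is released. RNA polymerase II makes messenger RNA, the Mediator complex links it to activators, and remodelling complexes and histone chaperones handle the nucleosomes in its path. RPO26 encodes Rpb6, a small subunit shared by RNA polymerases I, II and III. SRB2 encodes Med20, a subunit of the Mediator head module. TAF14 encodes a YEATS-domain protein found in TFIID, TFIIF and several chromatin complexes. ARP9 encodes an actin-related protein of the remodellers RSC and SWI/SNF, and VPS75 a histone chaperone of the NAP family that binds the acetyltransferase Rtt109.

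The introns themselves are short and lie between coding exons. In the R64 genome they are at chrXVI:911277-911352 on the plus strand for RPO26, chrVIII:189750-189850 on the minus strand for SRB2, chrXVI:305307-305411 on the plus strand for TAF14, chrXIII:337818-337903 on the plus strand for ARP9 and chrXIV:185492-185586 on the plus strand for VPS75. The whole introns are shown because they differ in the short sequences that the spliceosome reads. Capitals mark the first 6 bases at the 5′ splice site, the 7 bases of the branch sequence and the last 3 bases at the 3′ splice site, in R64 sequence from RefSeq, read 5′ to 3′ along the transcript.
RPO26: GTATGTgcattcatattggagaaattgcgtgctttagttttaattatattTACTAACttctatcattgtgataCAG
SRB2: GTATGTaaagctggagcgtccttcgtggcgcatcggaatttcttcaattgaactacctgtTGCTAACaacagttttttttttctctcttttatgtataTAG
TAF14: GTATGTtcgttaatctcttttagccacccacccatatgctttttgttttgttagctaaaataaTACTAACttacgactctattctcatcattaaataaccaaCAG
ARP9: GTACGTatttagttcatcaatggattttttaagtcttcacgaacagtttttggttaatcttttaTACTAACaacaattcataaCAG
VPS75: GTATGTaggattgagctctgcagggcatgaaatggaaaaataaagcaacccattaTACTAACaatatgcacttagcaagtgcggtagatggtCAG

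RPO26, TAF14 and VPS75 have the consensus GTATGT at the 5′ splice site and TACTAAC at the branch. The 5′ splice site of ARP9 differs from the consensus by T4C, and the branch sequence of SRB2 differs by A2G, with positions counted from 1 at the 5′ end of each motif. Among 258 introns of genes with a single intron that were placed on R64, 72.1% have GTATGT and 82.9% have TACTAAC. The ARP9 form of the 5′ splice site occurs in 26 of them (10.1%), and the SRB2 form of the branch in 1 (0.388%), which is SRB2 itself. Lengths are 76 nt for RPO26, 86 nt for ARP9, 95 nt for VPS75, 101 nt for SRB2 and 105 nt for TAF14, against a median of 147 nt, and 38.0% of the 258 introns are no longer than 105 nt. From the branch adenosine to the end of the intron there are 16 nt in ARP9, 20 nt in RPO26, 34 nt in VPS75, 35 nt in SRB2 and 36 nt in TAF14, with a median of 34 nt. VPS75 has 3 AG dinucleotides between the branch and its 3′ splice site, and 6.98% of the 258 introns have at least that many.

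Labelled libraries held 935805 to 8130197 reads in WT, 388817 to 4440617 in prp2-1 and 4155116 to 11674413 in WT_30. The 0 s libraries, which show the unlabelled RNA carried through the pull-down, held 414908 to 1198827 reads in WT, 48248 and 77751 in prp2-1, and 5753140 and 6487775 in WT_30, where they lay within the range of the labelled libraries. Certain WT libraries stand apart. Some unspliced reads stop past the branch point but short of the 3′ splice site. In WT course 1 they made up 54.2% of all unspliced reads at 390 s and 73.4% at 540 s, against 31.5% to 37.9% in the other courses at those times, and the 300 s library of WT course 2 had the fewest spike-in reads, 837. Leaving out the 540 s library of WT course 1 or the 300 s library of WT course 2 changed none of the calls for the 5 genes in the WT and prp2-1 comparisons below. These bulk counts cannot tell a smaller number of cells making an RNA from less of that RNA in each cell.

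The first comparison asked how far each RNA is spliced at a given labelling time in WT. Summed over 150 to 990 s, the unspliced share was 1.52%, 1.91% and 1.50% for ARP9 in courses 1, 2 and 3, and 2.60%, 3.25% and 2.70% for RPO26. It was 8.52%, 7.28% and 9.18% for VPS75 and 8.63%, 10.3% and 10.2% for TAF14, and the courses of these genes overlap. SRB2 stood far above them, at 45.3%, 43.5% and 46.0%. ARP9 and RPO26 therefore lie below the median intron, which had 7.37%, as ranks 58 and 86 from the lowest of 282 introns. VPS75 and TAF14 lie near it, at ranks 156 and 165, and SRB2 lies at rank 256.

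The mean unspliced share over the WT courses was highest at 90 or 120 s for each of the 5 genes and lower at 990 s, as the plot of the unspliced share by labelling time shows. RPO26 had 9.89%, 9.40% and 12.2% unspliced reads at 90 s and 1.00%, 1.09% and 0.552% at 990 s. ARP9 went from 8.60%, 7.76% and 9.51% to 0.607%, 0.813% and 0.469%. The courses at 90 s and at 990 s do not come near each other for either gene. TAF14 had 27.5%, 23.3% and 25.7% at 90 s and 4.37%, 5.38% and 4.88% at 990 s. VPS75, which has few reads (66 to 157 per library at 90 s), had 27.3%, 17.8% and 29.3%, and at 990 s it had 3.20%, 5.42% and 4.56%. SRB2 had 54.0%, 54.9% and 48.2% at 90 s and still 33.1%, 34.4% and 39.5% at 990 s.

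**Figure D1:**
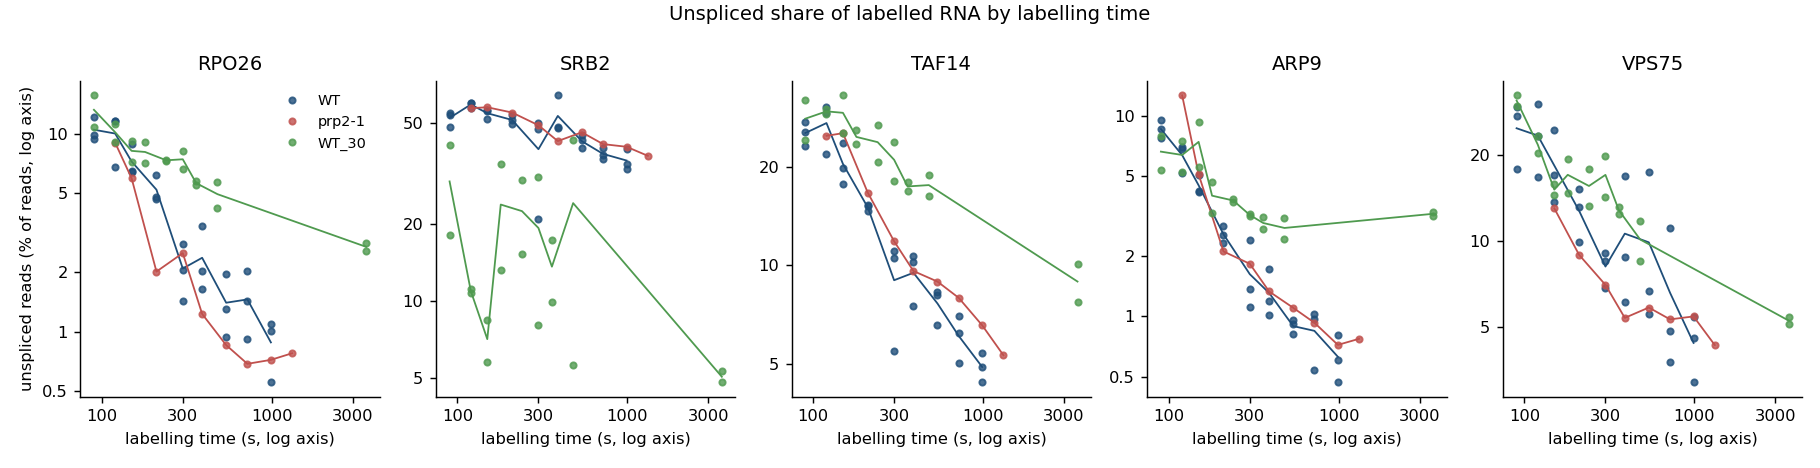
Unspliced reads as a percentage of all reads of each gene (log axis) against nominal labelling time in seconds (log axis), with points for libraries of at least 50 reads and lines through the mean of the courses, for WT (3 courses), prp2-1 (1 course) and WT_30 (2 courses). RPO26 and ARP9 in WT fall to near 1% or below by 990 s, while SRB2 in WT stays between 33.1% and 39.5% at that time.

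The 0 s libraries were read beside these values, and are not a lower limit to them. At 0 s in WT, SRB2 had 37.6%, 37.6% and 39.0% unspliced reads from 527 to 1141 reads, a mean of 38.1%, beside a mean of 35.6% at 990 s. RPO26 had 0.327%, 1.15% and 1.28% at 0 s and ARP9 3.31%, 1.53% and 2.13%. TAF14 had 9.09%, 8.27% and 4.75%, and VPS75 18.5%, 10.6% and 23.4% from only 27 to 47 reads. All 3 courses of ARP9 and VPS75 were higher at 0 s than any course was at 990 s, and RPO26 overlapped between these times. In prp2-1 the 0 s libraries held 0 to 57 reads of each of the 5 genes, too few to set a background there.

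Late libraries (540, 720 and 990 s) were then compared with early ones (150, 210 and 300 s) within WT, with the counts of each course summed over each window. Changes are given as the difference in log2 of unspliced over spliced reads with its SE, and an intron counts as changed where the Benjamini-Hochberg adjusted p of edgeR's quasi-likelihood test is under 0.05. RPO26 fell from 5.10% ± 1.41 early to 1.24% ± 0.248 late (SD, n = 3), a change of -2.08 ± 0.31 (edgeR, adjusted p = 4.29e-05). ARP9 fell from 2.87% ± 0.759 to 0.759% ± 0.164, a change of -1.94 ± 0.30 (edgeR, adjusted p = 6.2e-05). TAF14 fell from 15.3% ± 2.00 to 6.05% ± 1.13, a change of -1.50 ± 0.28, and VPS75 from 12.7% ± 0.455 to 5.64% ± 1.06, a change of -1.30 ± 0.22. The smallest fall was that of SRB2, from 50.7% ± 1.82 to 38.3% ± 1.75, a change of -0.73 ± 0.24 (edgeR, adjusted p = 0.0113). All 5 fell in 3 of 3 courses with no overlap between early and late courses, beside 250 of 275 introns (90.9%) that fell in the whole table.

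The 5 genes did not stand apart from the other introns as a group. The median change was -1.50 for the 5 genes and -1.52 for all introns tested, and SRB2 ranked 243 from the largest fall. Without WT course 1 the adjusted p of SRB2 was 0.0725 by edgeR, and with limma on the mean log2 ratio of the libraries, which gives each library equal weight, it was 0.0559. When unspliced and spliced reads were each scaled to themselves by TMM, which takes out the fall common to all introns and moves the median change to -0.0070, the change was -0.56 for RPO26 and -0.42 for ARP9, and 0.016 for TAF14, 0.21 for VPS75 and 0.79 for SRB2. Of the 5 genes, only SRB2 passed in that setting (edgeR, adjusted p = 0.0280), as a rise relative to the other introns. Over all introns, 39 of 275 were higher there and 17 were lower.

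Counting against the spike-in shows which of the RNA forms moved. Per spike-in read, spliced RPO26 reads rose from early to late by 5.84-fold, 7.91-fold and 4.15-fold in WT courses 1, 2 and 3, while unspliced reads rose by only 1.21-fold, 1.59-fold and 1.31-fold. ARP9 gave nearly the same picture, with spliced reads up by 3.48-fold to 7.01-fold and unspliced reads by 1.06-fold to 1.69-fold. For TAF14 unspliced reads rose by 2.03-fold to 3.63-fold and for VPS75 by 2.29-fold to 4.55-fold, against 4.72-fold to 11.0-fold and 4.36-fold to 12.1-fold for spliced reads. Unspliced SRB2 reads rose the furthest of the 5, by 4.15-fold, 5.54-fold and 2.80-fold, beside 7.63-fold, 8.37-fold and 4.57-fold for its spliced reads. In each of the 3 courses the spliced reads of each of the 5 genes rose by more than the unspliced ones. These folds share each library's spike-in count, which lay between 837 and 18878 reads in labelled WT libraries, and no test was made on them.

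**Figure D2:**
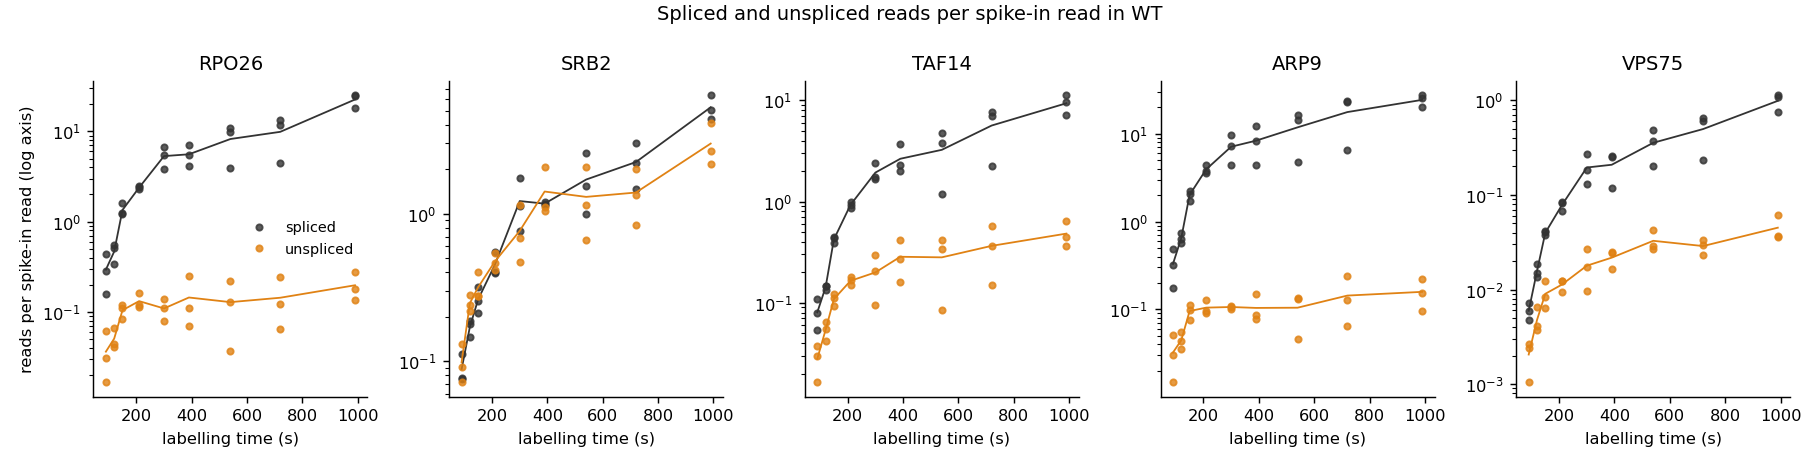
Spliced (grey) and unspliced (orange) reads per spike-in read (log axis) against nominal labelling time in WT, with 1 point per library and lines through the mean of 3 courses. Unspliced RPO26 and ARP9 reads rise little after 150 s while spliced reads go on rising, and SRB2 has nearly equal numbers of both at early times.

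As a share of all intron reads, the 5 RNAs moved far less between windows. Reads were also scaled to 1000000 intron reads per library (RPM). RPO26 held 3457 ± 28.7 RPM early and 3586 ± 423 late (SD, n = 3), and SRB2 held 1274 ± 50.2 and 1262 ± 125. TAF14 held 1412 ± 117 and 1729 ± 87.0, and VPS75 131 ± 17.5 and 170 ± 17.5. Each WT course had more TAF14 and more VPS75 late than early. ARP9 was lower late in each course, at 5616, 5385 and 4980 RPM early and 4956, 4975 and 4930 late in courses 1, 2 and 3. By edgeR with TMM factors, 0 of the 5 changed, 2 had an unadjusted p under 0.05 (TAF14, log2 change 0.32 ± 0.13, and VPS75, 0.40 ± 0.16), and 0 were called by DESeq2, while 24 of 275 introns (8.73%) changed in either direction. Over all introns, 89 of 275 had an unadjusted p under 0.05. In the fit with the course as a replicate block, both TAF14 (edgeR, adjusted p = 0.0105) and VPS75 (adjusted p = 0.0401) passed as higher. In that fit 62 of 275 introns were higher and 69 were lower. Scaled by spike-in reads instead, all 275 introns rose, with a median of 2.40, and the 5 genes rose by 2.33 to 2.82 on the log2 scale.

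A single number for speed was taken from each WT course by fitting a constant rate of splicing to the unspliced share over all times after 0 s. The fit assumes constant synthesis, no decay and no unlabelled background, and its inverse is an apparent lifetime of the unspliced RNA. The lifetime was 5.97 ± 0.363 s for ARP9, 9.19 ± 0.654 s for RPO26, 33.3 ± 4.39 s for VPS75 and 35.1 ± 2.77 s for TAF14 (SD, n = 3). The courses of VPS75 (28.3 to 36.5 s) and TAF14 (32.2 to 37.7 s) overlap, and those of ARP9 and RPO26 do not. The median of 275 introns was 25.1 s, and ARP9 ranked 58 and RPO26 81 from the shortest. For SRB2 the fit gave 247 ± 26.0 s, and 251 s with the 0 s reads of each course subtracted. Its root mean square deviation was 0.38 to 0.61 on the log2 scale. That of the others was 0.31 to 0.45 for ARP9, 0.42 to 0.52 for RPO26, 0.21 to 0.52 for TAF14 and 0.47 to 0.70 for VPS75. The observed share of SRB2 was 48.2% to 54.9% at 90 s and 33.1% to 39.5% at 990 s. It fell less between these times than the fitted curve does, so a constant rate describes SRB2 poorly. The shares of TAF14 and VPS75 also fell less between these times than their fitted curves do, so the same limit applies to their lifetimes.

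The introns with the most similar course in WT, by the root mean square difference in log2 of unspliced over spliced reads over the 9 labelled times, came from varied genes. For RPO26 they were PRE3, a proteasome core subunit (0.23), and ERD2, the receptor that returns proteins to the endoplasmic reticulum (0.28). For TAF14 they were PBA1 (0.11), which encodes a proteasome assembly factor, and VPS75 (0.19), and for VPS75 they were PBA1 (0.19) and TAF14 (0.19). For ARP9 they were the ribosomal protein genes RPL16B (0.33) and RPL40B (0.40). For SRB2 they were NCE101 (0.33) and intron 1 of SUS1 (0.36), a subunit of the SAGA and mRNA export complexes. The 275 introns that passed the count minimum were searched.

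The second chemical step was read from the reads assigned to the lariat intermediate, which are deposited for WT and prp2-1. Over 150 to 990 s in WT, lariat reads were 1.68%, 2.30% and 2.80% of the unspliced reads of RPO26 in courses 1, 2 and 3. They were 5.05%, 5.36% and 9.89% for VPS75 and 12.5%, 14.8% and 14.9% for SRB2. TAF14 had 23.2%, 23.7% and 21.7%, and ARP9 20.6%, 22.6% and 36.0%. RPO26 thus had the lowest lariat share of the 5 genes and ranked 24 from the lowest of 259 introns, whose median was 18.4%, while TAF14 and ARP9 lay above the median at ranks 150 and 164. ARP9 and TAF14 overlap between courses, and course 3 of ARP9 lies apart from its other courses.

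Reads that stop past the branch point can come from either RNA form, and they took very different shares. They were 2.02% ± 1.09 of unspliced reads for ARP9 and 4.00% ± 2.07 for RPO26, which have the shortest distance from branch to 3′ splice site. They made up 15.4% ± 6.27 for TAF14, 23.0% ± 7.28 for SRB2 and 34.8% ± 9.57 for VPS75 (SD, n = 3), which have at least 34 nt there. The median intron of 287 had 12.2%. When the authors' estimated counts, which share these reads out between the forms, were used, the lariat share of VPS75 was 13.8%, 7.79% and 17.6% of unspliced RNA, and that of RPO26 1.82%, 2.34% and 3.03%.

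**Figure D3:**
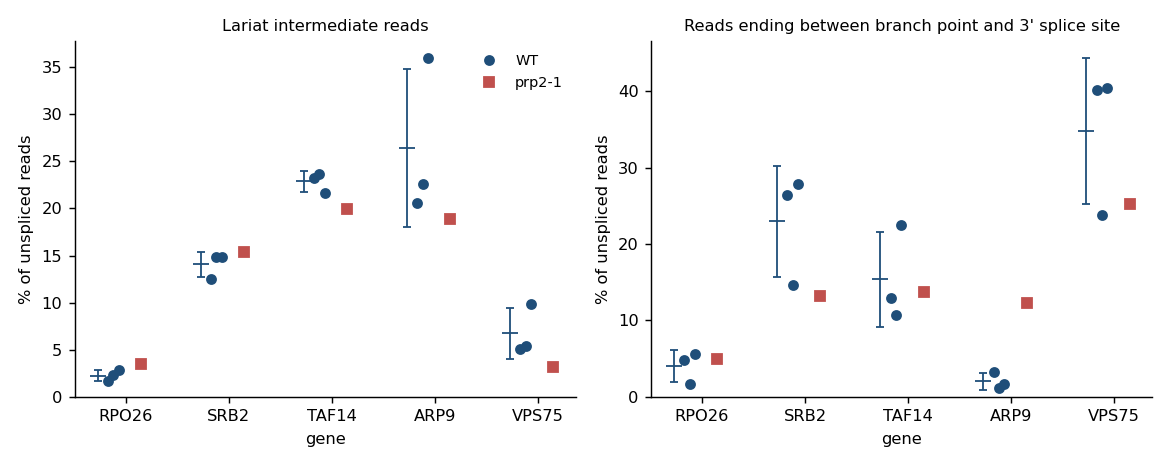
Lariat reads (left) and reads that stop past the branch point but before the 3′ splice site (right), each as a percentage of unspliced reads summed over 150 to 990 s, for the 3 WT courses (circles, with mean and SD) and the prp2-1 course (squares). RPO26 has the lowest WT lariat share and VPS75 the highest WT share of reads past the branch point among the 5 genes.

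Between early and late windows in WT, the lariat share of RPO26 went from 1.93% ± 0.708 to 3.78% ± 0.501 (SD, n = 3), a log2 change of 1.04 ± 0.35, with 25 to 54 lariat reads per course early and 17 to 36 late. SRB2 went from 11.8% ± 1.87 to 16.8% ± 1.71, a change of 0.61 ± 0.28, and TAF14 from 26.1% ± 1.64 to 19.5% ± 1.71, a change of -0.54 ± 0.23. The courses of these 3 genes do not overlap between windows. By edgeR's quasi-likelihood test 0 of the 5 passed, 2 had an unadjusted p under 0.05 (RPO26 and TAF14), and 0 were called by DESeq2. Among all introns 0 of 248 introns (0%) passed, with 39 at an unadjusted p under 0.05. In the fit with the course as a replicate block, RPO26 passed (edgeR, adjusted p = 0.0212), as did 44 introns in all. ARP9 had 26.3% ± 11.1 early and 27.5% ± 2.42 late, and VPS75 6.38% ± 6.38 and 7.56% ± 0.890.

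The prp2-1 comparison asked whether an allele of the ATPase that acts before the first step shifts the share of unspliced RNA, with reads summed over 150 to 990 s. A lone prp2-1 course stands against 3 WT courses here, and it is assumed to vary as they do. RPO26 had 1.24% unspliced reads in prp2-1 (95% Wilson interval 1.15% to 1.33%, counting error only), below the 2.60% to 3.25% of the WT courses, a change of -1.22 ± 0.34 (edgeR, adjusted p = 0.0164). VPS75 had 6.15% (5.45% to 6.92%), also below all WT courses, with a change of -0.47 ± 0.26 that did not pass, although in the late window alone it lay inside them, at 5.51% against 4.83% to 6.83%. ARP9 had 1.33% in prp2-1, TAF14 9.31% and SRB2 44.9%, with changes of -0.30 ± 0.34, -0.062 ± 0.32 and 0.00034 ± 0.31, none of which passed. So 1 of 5 genes was lower, beside 87 of 283 introns (30.7%), and the median change was -0.30 for the 5 and -0.62 for all introns tested.

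The call for RPO26 depends on single courses. Without WT course 2 its change was -1.12 (edgeR, adjusted p = 0.112), and in that fit 3 of 284 introns were lower, while without WT course 3 it was -1.26 (adjusted p = 0.0530). Late libraries supplied 67.4% of the RPO26 reads in the prp2-1 sum but 47.3% to 51.1% in WT, and late libraries have lower unspliced shares. Within each window it still lay below the WT courses, at 2.72% against 4.10% to 6.71% early and 0.742% against 0.961% to 1.43% late. With limma and each library weighted equally, a setting that changes the test and the weights together, its change was -0.59 ± 0.35 (limma, adjusted p = 0.289). Time by time, RPO26 in prp2-1 lay below all WT courses at 5 of the 7 times. TAF14 lay above all WT courses at 6 of the 7 times and SRB2 at 5, and in the limma setting their changes were 0.33 ± 0.35 and 0.16 ± 0.35, neither of which passed. That setting turned ARP9 from -0.30 to 0.14.

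Within the prp2-1 course the unspliced share was also lower in the late window than in the early one. Besides RPO26, given above, ARP9 went from 2.35% to 0.901%, TAF14 from 15.1% to 7.55%, VPS75 from 8.35% to 5.51% and SRB2 from 53.1% to 42.3%. There was 1 course and so no test of these differences. The apparent lifetime in prp2-1 was 6.57 s for RPO26 and 21.5 s for VPS75, below the WT courses, and 6.99 s for ARP9, 45.2 s for TAF14 and 339 s for SRB2, above them. The prp2-1 course was fitted over 120 to 1320 s and the WT courses over 90 to 990 s, so these lifetimes rest on unlike times. As in WT, the observed share of SRB2 fell less with time than its fitted curve. The VPS75 fit was poor, with a root mean square deviation of 1.49 on the log2 scale against 0.47 to 0.70 in WT. It includes the 120 s library, with 0 unspliced of 38 reads, which allows a share of up to 7.89%.

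Lariat shares in prp2-1 were 3.48% for RPO26 (95% Wilson interval 2.35% to 5.12%), 3.15% for VPS75 (1.60% to 6.09%), 15.4% for SRB2, 19.9% for TAF14 and 18.9% for ARP9. The values of RPO26 and SRB2 lay above the WT courses, and those of VPS75, TAF14 and ARP9 lay below them. The lariat share of SRB2 was higher late than early in all WT courses. Late libraries supplied 12132 of its 18837 unspliced reads in the prp2-1 sum. In WT courses 1, 2 and 3 they supplied 6947 of 17910, 8042 of 18691 and 8584 of 21498. Within windows SRB2 lay inside the WT courses both times, at 12.2% against 9.88% to 13.6% early and 16.9% against 15.0% to 18.4% late. RPO26 lay inside them early, at 2.05% against 1.18% to 2.59%, and above them late, at 6.09% against 3.46% to 4.35%. By edgeR's quasi-likelihood test 0 of the 5 passed, 0 had an unadjusted p under 0.05 and 0 were called by DESeq2, against 12 of 261 introns (4.6%) in either direction. The changes ran from -1.13 ± 0.73 for VPS75, which rests on 8 lariat reads in prp2-1, to 0.66 ± 0.54 for RPO26. In ARP9, reads ending past the branch point were 12.2% of unspliced reads in prp2-1 and 1.16% to 3.25% in WT.

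Of the labelled RNA, SRB2 took 3281 RPM in prp2-1 and 1285, 1246 and 1321 in WT. Relative to the other targets it was higher in prp2-1, by a log2 change of 0.77 ± 0.15 with TMM factors (edgeR, adjusted p = 0.00889). It was the only gene of the 5 to pass, beside 91 of 284 introns (32%) that were higher. VPS75 took 323 RPM against 137 to 166 in WT, a change of 0.49 ± 0.20 that did not pass, and that passed by DESeq2 and with count minimums raised 5 times. Before TMM the other 3 genes also lay above all WT courses. RPO26 took 4372 RPM against 3350 to 3704, TAF14 2446 against 1541 to 1659, and ARP9 6637 against 5059 to 5227. With TMM factors they changed by -0.27 ± 0.16 (RPO26), 0.015 ± 0.16 (TAF14) and -0.22 ± 0.13 (ARP9), so RPO26 and ARP9 change sign with this scaling. Scaled by spike-in reads, the direction of SRB2 flips to -3.41, and all 5 genes were lower, by -4.45 to -3.41, with a median of -4.18 for all introns. In that setting 276 of 284 introns passed as lower. Labelled libraries held 10377 to 71935 spike-in reads in prp2-1 and 837 to 18878 in WT.

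WT_30 was set against WT at the labelling times they share (90, 120, 150 and 300 s). SRB2 differed the most of the 5 genes. Its unspliced share was 8.62% and 16.1% in the WT_30 courses and 53.5%, 49.9% and 53.9% in WT, a change of -3.04 ± 0.33 (edgeR, adjusted p = 1.42e-07). The 3 genes TAF14, VPS75 and ARP9 had higher mean shares in WT_30 without passing. TAF14 had 27.2% and 25.7% against 14.8%, 22.1% and 18.3%, a change of 0.69 ± 0.30 (edgeR, adjusted p = 0.0513). VPS75 had 17.7% and 23.2% against 14.6% to 16.8%, a change of 0.47 ± 0.29, and ARP9 had 4.92% and 5.78% against 3.04% to 5.06%, a change of 0.46 ± 0.30. RPO26 was higher, with 8.55% and 10.9% against 5.28%, 7.31% and 6.38%, a change of 0.67 ± 0.29 (edgeR, adjusted p = 0.0468).

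Thus 1 of the 5 was lower in WT_30, beside 80 of 284 introns (28.2%), and 1 was higher, beside 107 of 284 (37.7%). The call for RPO26 did not hold without WT course 1, WT course 3, WT_30 course 1 or WT_30 course 2, with edgeR adjusted p of 0.0567, 0.0634, 0.107 and 0.392. TAF14 passed without WT course 2 (adjusted p = 0.0188), with limma and equal weights for each library (limma, adjusted p = 0.0187), and by DESeq2 (adjusted p = 0.0335). SRB2 passed under each alternative run. The spike-in RNA differs between these groups, and whatever else sets WT_30 apart is not given in the labels, so these cannot be told apart as sources of a difference. The WT courses are also the controls of the prp2-1 comparison.

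The labelled RNA of SRB2 was also lower in WT_30. It took 203 and 135 RPM there and 1495, 1587 and 1325 in WT, a log2 change of -3.56 ± 0.27 (edgeR, adjusted p = 7.31e-07). At 0 s it took 102 and 82.7 RPM in WT_30, with 6.83% and 7.56% unspliced reads, against 949 to 1301 RPM and 37.6% to 39.0% in WT, so the unlabelled libraries also lay lower in both, a difference that was not tested. ARP9 took 3594 and 4394 against 5246, 4187 and 4505, and passed as lower with -0.68 ± 0.18 (edgeR, adjusted p = 0.00482), although its courses overlap on this scale before TMM. RPO26 took 6124 and 6326 against 3133 to 3325 and passed as higher with 0.49 ± 0.17 (edgeR, adjusted p = 0.0256). That gives 2 lower and 1 higher of the 5, beside 98 of 284 introns (34.5%) lower and 106 (37.3%) higher. RPO26 did not pass without WT course 1 or 2, or without either WT_30 course (adjusted p from 0.0561 to 0.0950). In RPM both WT_30 courses lay above all WT courses for TAF14 (1605 and 1859 against 1118 to 1465) and VPS75 (200 and 235 against 104 to 148). With TMM factors TAF14 changed by 0.014 ± 0.17 and VPS75 by 0.40 ± 0.19, and neither passed.

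Library by library, the low share of SRB2 in WT_30 was uneven. At labelling times of 90, 120, 150, 180, 240, 300, 360, 480 and 3600 s, course 1 had 18.2%, 10.7%, 5.76%, 13.3%, 15.3%, 8.09%, 9.90%, 42.9% and 4.80% in turn. Course 2 had 40.9%, 11.2%, 8.44%, 34.6%, 29.9%, 30.7%, 17.4%, 5.63% and 5.31% at the same times. Neither course moved steadily with time, and the courses were closest to each other at 120 and 3600 s, followed by 150 s. Spliced SRB2 reads spanned 28.7 to 308 RPM over the 18 labelled WT_30 libraries, a range of 10.7-fold, whereas unspliced reads spanned 8.46 to 31.1 RPM, a range of 3.68-fold. Over the 27 labelled WT libraries spliced reads spanned 2.89-fold and unspliced reads 6.20-fold. All labelled WT_30 libraries lay below all labelled WT libraries in both forms.

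**Figure D4:**
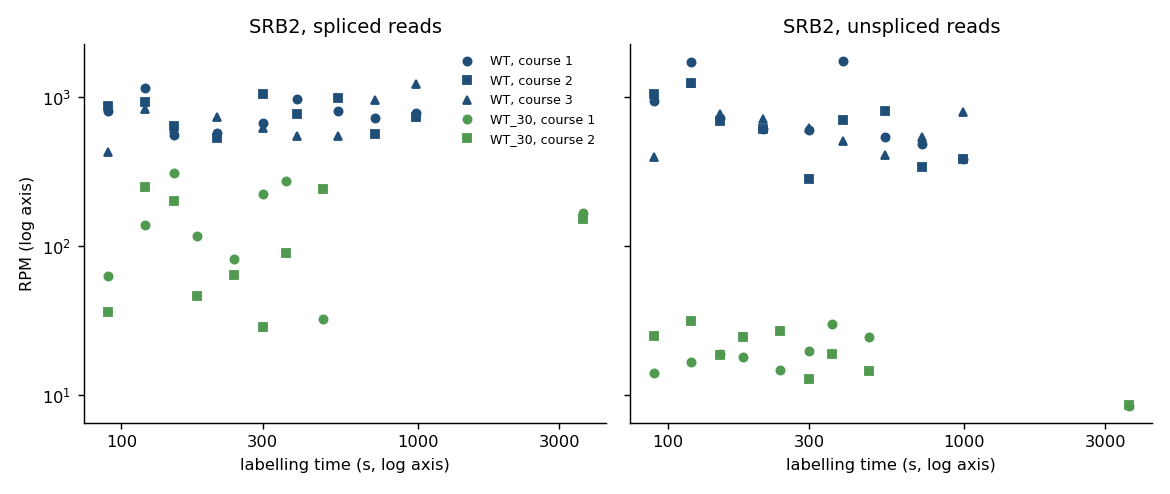
Spliced and unspliced SRB2 reads in RPM (log axis) against nominal labelling time in seconds (log axis), 1 point per labelled library, for the 3 WT and 2 WT_30 courses. WT_30 lies below WT in both panels, and the spliced reads in WT_30 scatter between 28.7 and 308 RPM.

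Within WT_30, libraries at 300, 360 and 480 s were compared with those at 90, 120 and 150 s. ARP9 fell from 6.79% ± 0.628 to 2.99% ± 0.0382 unspliced reads (SD, n = 2), a change of -1.24 ± 0.21 (edgeR, adjusted p = 0.00373). RPO26 fell from 10.7% ± 1.60 to 6.14% ± 0.0129, VPS75 from 22.5% ± 3.06 to 13.6% ± 0.936 and TAF14 from 29.4% ± 0.156 to 19.2% ± 2.71, with changes of -0.87 ± 0.21, -0.88 ± 0.20 and -0.82 ± 0.22. SRB2 had 8.98% and 14.7% early and 11.7% and 12.9% late, a change of 0.095 ± 0.28 that did not pass, and its courses moved in opposite directions. So 4 of 5 fell, beside 185 of 282 introns (65.6%), with medians of -0.87 for the 5 and -0.73 for all introns tested. With unspliced and spliced reads each scaled by TMM, 0 of the 5 and 0 of the 282 introns passed by edgeR.

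By 3600 s the shares in WT_30 were 2.57% and 2.80% for RPO26, 7.72% and 10.1% for TAF14, 5.10% and 5.41% for VPS75, 3.18% and 3.33% for ARP9 and 4.80% and 5.31% for SRB2. For RPO26, TAF14, VPS75 and SRB2 these lay below all labelled libraries up to 480 s. ARP9 at 3600 s lay within its range at 300 to 480 s, 2.44% to 3.23%, or slightly above it. At 0 s, TAF14 already had 21.5% and 12.4% unspliced reads in WT_30, from 8163 and 7098 reads, and RPO26 had 3.97% and 2.97%.

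Other intron-containing genes of the same machinery were read beside these 5. They are KIN28 (the kinase of TFIIH), IWR1 (a factor for nuclear import of RNA polymerase II), NCB2 (a subunit of negative cofactor 2), SUS1 with 2 introns (numbered as in the tables), GCR1 (a transcription factor of glycolytic genes) and ACT1 (actin, also a subunit of chromatin complexes), which makes 7 introns. In WT the unspliced share fell from early to late in 6 of the 7, beside 90.9% of all introns. KIN28 went from 43.7% ± 3.55 to 24.8% ± 1.94 and NCB2 from 37.9% ± 4.04 to 20.8% ± 1.39 (SD, n = 3), and GCR1 did not pass, with a change of 0.30 ± 0.24. All 7 had higher early shares than RPO26, TAF14, ARP9 and VPS75 did, the lowest being ACT1 at 22.6% ± 3.25.

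In prp2-1 the unspliced share was lower in 3 of these 7 introns, beside 30.7% of all introns. NCB2 changed by -0.93 ± 0.23, ACT1 by -0.98 ± 0.34 and intron 2 of SUS1 by -1.53 ± 0.31, and the median of the 7 was -0.59. In WT_30 against WT, 3 were lower (ACT1 by -1.97 ± 0.29, intron 1 of SUS1 by -1.10 ± 0.29 and intron 2 by -3.22 ± 0.31) and 1 was higher (IWR1, by 0.91 ± 0.29), beside 28.2% and 37.7% of all introns. Labelled RNA was higher in prp2-1 for 4 of the 7, the furthest being SUS1 intron 1 at 1.32 ± 0.18, and was higher in WT_30 for 3 and lower for 1 (KIN28, by -0.72 ± 0.18). Over all introns 32% were higher in prp2-1, and 37.3% were higher and 34.5% lower in WT_30. Late against early in WT_30, 5 of the 7 fell, with a median of -0.85, beside 65.6% of all introns. For the WT lariat share, WT labelled RNA and the prp2-1 lariat share, 0 of the 7 passed by edgeR.

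**Figure D5:**
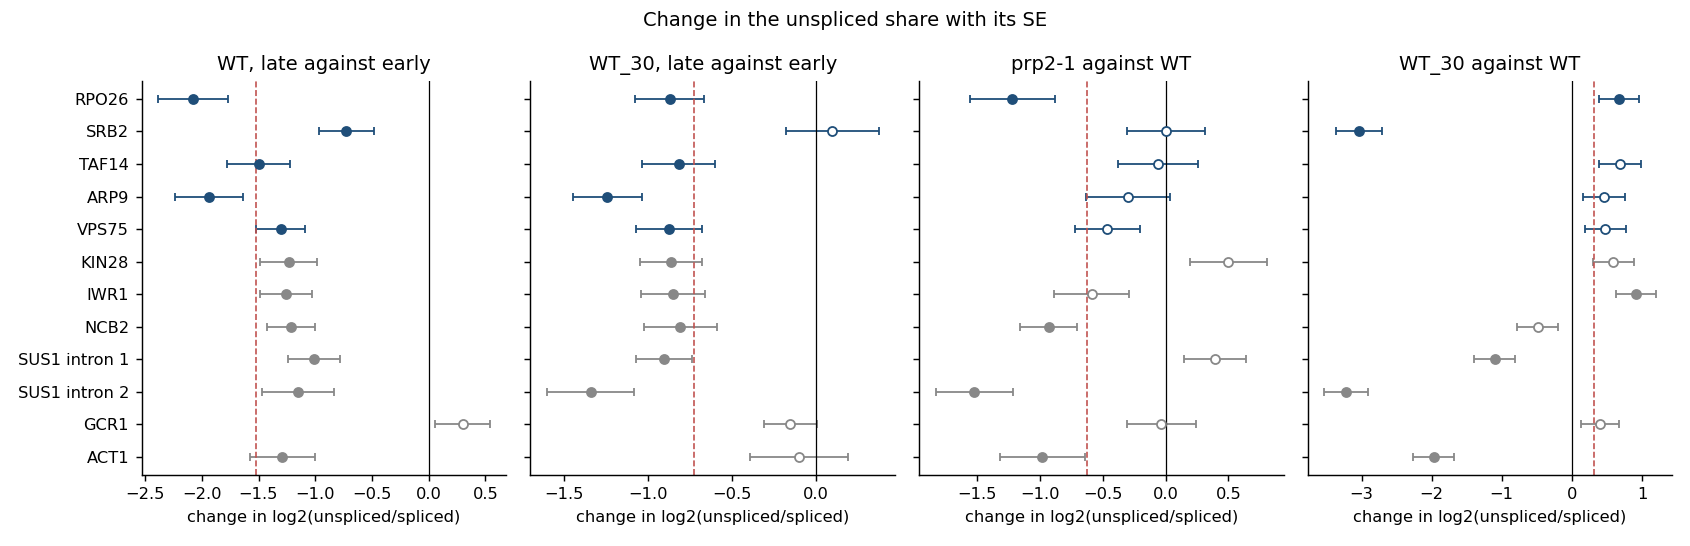
Changes in log2 of unspliced over spliced reads with their SE for the 5 genes (blue) and the 7 other introns (grey) in 4 comparisons, with filled points where the edgeR adjusted p is under 0.05 and a dashed line at the median of all introns tested. The WT panel has all 5 blue points below 0 on both sides of the dashed line at -1.52, and SRB2 lies apart at -3.04 in the WT_30 against WT panel.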

How the data were processed

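STAR 2.7.2b and genome build R64 are named in the submitters' processing notes. The authors deposited unscaled whole-number counts for each intron, per the file headers: all reads, unspliced reads, reads of the lariat intermediate and reads that stop past the branch point. For WT and prp2-1 they also deposited estimated counts, in which the last kind is shared out between the lariat intermediate and RNA that has not undergone the first step. Estimated counts served to describe lariat shares and entered no test. The authors' normalized and splicing index tables were not used.

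The counts cover 61 libraries. Each prp2-1 table holds 18 columns, 108 altogether, that were not tied to a sample, because column and title numbers disagree. Spliced reads are all reads less unspliced reads. Counts were summed per time course, the unit of replication, over the libraries of a window. For a share, its numerator and the remaining reads formed 2 columns for each course (and window), with a term for that unit, in edgeR 4.0.16. The quasi-likelihood test was applied to the group by column interaction, with library sizes equal to the sum of both columns. Introns entered with 20 unspliced and 100 total reads on average, or 5 lariat reads in place of the total. Tests of labelled RNA used TMM factors and the sum of spliced and unspliced reads. Adjustment was by Benjamini-Hochberg, at 0.05, over all introns. Statistics were tested on simulated data, and limma 3.58.1 and DESeq2 1.42.0 were alternatives. Lifetimes used the recorded labelling times, which differ from the nominal ones by at most 10 s, and a pseudocount of 0.5 reads.

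The labels place the windows of each WT course in 1 time course, which makes them pairs. Their deviations from the window means correlated at 0.648, 0.374 and 0.618 for the unspliced share and 0.448, 0.349 and 0.502 for the lariat share. Over 41 pairs of replicate libraries, chi-squared divided by its degrees of freedom was 7.68 to 2836, and none were duplicates. Reads carry no molecular identifiers, so intervals cover counting error only.

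The genes named are the 5 members, 7 introns of other polymerase II and chromatin genes, and for each member the 2 introns nearest to it in WT. Members and lists were chosen with earlier results of these data known. Introns were read from R64, with the branch set at the last window with the fewest mismatches to TACTAAC.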

Additional observations from a re-analysis of the deposited data

How the results depend on the processing

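Of 92 counts of called genes recomputed under an alternative, 75 stayed within 1.5 times of the value reported, and 29 of 30 lifetimes stayed within their SD. Of 458 single changes, 413 were counted as the same. A change called in neither setting was counted as the same even where its sign turned. Scaling unspliced and spliced reads each by TMM left 1 of the 5 genes changed from early to late in WT and 0 in WT_30. It takes out the fall common to all introns there, and over all introns 56 and 0 passed. For WT_30 against WT it left 1 of the 5, while 200 introns passed in place of 187. The median change there was 0.097 in place of 0.32. This scaling changed the sign of some genes. It turned SRB2 (0.79), TAF14 (0.016) and VPS75 (0.21) in WT. Spike-in reads as library size gave 5 of 5 for labelled RNA in WT and 5 in prp2-1. Over all introns 275 of 275 passed in WT and 277 of 284 in prp2-1. Spike-in scaling turned ARP9 (2.33) in WT and SRB2 (-3.41), TAF14 (-4.16) and VPS75 (-3.67) in prp2-1. The paired fit, with the course as a replicate block, gave 1 of 5 for the WT lariat share and 2 for WT labelled RNA, and over all introns 44 in place of 0 and 131 in place of 24. The block left the other counts of the 5 genes as they were. For WT_30 against WT, replicate numbers do not pair samples (correlations -0.00069 and 0.138). Limma with equal weights for each library, which changes test and weights together, gave 0 for the prp2-1 unspliced share, where 15 introns were lower in place of 87. DESeq2 and minimums raised 5 times each gave 2 for prp2-1 labelled RNA, where 202 of 284 and 163 of 273 introns passed in either direction. The main test called 189 of 284 there. No count minimum gave 1 for the unspliced share in WT_30 against WT, where 187 of 299 introns passed. DESeq2 called 68 introns for WT labelled RNA. Leaving out 1 course at a time, the number called ranged from 0 to 1 for the unspliced share in prp2-1. Over all introns, 3 to 71 were lower in those fits. For the unspliced share in WT_30 against WT, the calls of single genes that moved are given above. Without 1 WT course 173 to 191 introns passed there in either direction, in place of 187. Within WT_30, a fit without a course leaves no residual degrees of freedom and gave no test. The lifetime of ARP9 was 5.55 s from 150 s on. Leaving out the 540 s library of WT course 1 or the 300 s library of WT course 2 was chosen after seeing the data. VPS75 had 8 to 133 unspliced reads per labelled WT library, which limits its precision.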
